A study of Homo sapiens with 12 samples.

Results

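The genes described are 10 members of the transforming growth factor beta (TGF-beta) pathway and of the ID family, chosen by symbol among the 64252 gene IDs counted in each library. They comprise 3 ligand genes (TGFB1, TGFB2 and INHBA), 2 receptors (TGFBR1 and TGFBR2), 2 SMADs (SMAD3 and SMAD7) and 3 inhibitors of DNA binding (ID1, ID2 and ID3). Each symbol matched 1 gene ID, and all 10 passed the filter on low counts that left 15094 genes for testing. Their RNA was measured in MDA-MB-231, an established human triple-negative breast cancer line of mesenchymal character. The cells had been transfected by lipofection with a plasmid for Dicer, an RNA-cutting enzyme that releases mature microRNAs from their hairpin precursors. The plasmid carried wild-type Dicer or Dicer with mutation 1, mutation 2 or mutation 3, which the labels number without naming the residues. The wild-type libraries share 1 treatment label but have numbered genotype labels, and those numbers are read here as replicate numbers. Each of these 4 groups held 3 poly(A) RNA libraries, 12 in all, so every group, the wild-type one included, was transfected and carries a Dicer plasmid. Untransfected cells and cells with an empty plasmid were not analysed here, and the labels do not say that the line's own DICER1 was removed. The labels do not tie the libraries to separate cultures either, so the p-values below rest on the variation among these libraries alone, and that variation may be technical.

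As background, TGF-beta ligands are secreted in a latent form and, once freed, bring together a type II and a type I receptor at the cell surface. The type I receptor then phosphorylates SMAD2 and SMAD3, which enter the nucleus with SMAD4 and regulate target genes, while the inhibitory SMAD7 blocks the receptor and is itself a target. Activins, such as the dimer of INHBA subunits, use related receptors and the same SMADs, and bone morphogenetic proteins (BMPs) use SMAD1, SMAD5 and SMAD9. The ID proteins bind E proteins (basic helix-loop-helix transcription factors) and keep them off DNA. ID genes are classical BMP targets, and TGF-beta raises or lowers them depending on the cell. In breast cancer cells TGF-beta is known for its part in the epithelial-to-mesenchymal transition and in invasion.

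The libraries held 13507341 to 17078273 read pairs assigned to genes. Levels are given as CPM, in which counts are divided by a library's total of assigned read pairs, scaled by the trimmed mean of M-values (TMM) to correct for differences in composition. Of the wild-type libraries, replicate 1 stood apart: it differed by more than 2-fold from wild-type replicates 2 and 3 in 3326 and 3374 genes. Wild-type replicates 2 and 3 differed from each other to that extent in 243 genes, and pairs within a mutant group in 269 to 373. Wild-type replicate 1 lay nearest to the mutation 2 libraries, with 1941 to 1966 such genes. The comparisons of the 10 genes with wild type are therefore given with and without it. The markers of the line, VIM, CD44, KRT18, EGFR and FN1, ran between 70.2 and 1883 CPM, and the hormone receptors ESR1 and PGR reached at most 0.653 and 0.0741 CPM. A list of 6 markers of blood, endothelial, liver and red cells summed to 2.95 to 18.2 CPM in the wild-type libraries, and the T cell marker CD3E was at 0 in every library. In the mutant libraries this sum was 0.352 to 1.06 CPM. Most of the wild-type sum was PECAM1, an endothelial adhesion molecule, at 2.76, 17.1 and 15.3 CPM in wild-type replicates 1, 2 and 3. Its part in the results below was not tested. DICER1 was counted at 27.4 CPM in wild-type replicate 1 and at 38.8 to 47.4 CPM in the other 11 libraries, and these reads do not separate the plasmid from the cell's own gene.

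Across the 10 genes, ID1, ID3 and the receptor TGFBR2 were lower with each mutant Dicer than with the wild type, and SMAD3 was higher with each. With mutation 1, 7 of the 10 passed the test against wild type, 4 higher and 3 lower. Of all tested genes 69.0% passed, 32.5% higher and 36.5% lower. With mutation 2, 6 passed, 1 higher and 5 lower, where 37.0% of all genes passed (16.9% higher and 20.1% lower). With mutation 3, 7 passed, 2 higher and 5 lower, where 59.3% of all genes passed (28.1% higher and 31.2% lower). The shares for mutations 1 and 3 lie near those of all genes and are no result about these 10. For mutation 2 the count fell to 4 when only those groups were fitted. The members were also chosen with earlier results known, so that count is no result about them either. The median log2 fold change of the 10 was 0.39 with mutation 1, -1.15 with mutation 2 and -0.22 with mutation 3, where the medians of all tested genes were -0.04, -0.01 and -0.01. The libraries did not overlap wild type for 8, 6 and 6 of the 10 genes, where 68.0%, 42.6% and 61.0% of all genes did not. Leaving out wild-type replicate 1, 9, 9 and 10 members passed, where 82.7%, 67.9% and 77.1% of the 15806 genes then tested passed, and the medians of the 10 became 0.56, -0.40 and 0.16. The 3 comparisons share the same wild-type libraries, so a gene that lies on the same side in all of them does not show the same thing 3 times. Here and below, a gene passed if its adjusted p (edgeR's quasi-likelihood test, Benjamini-Hochberg over all 15094 genes) was under 0.05. The plot of CPM by library shows all values.

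**Figure D1:**
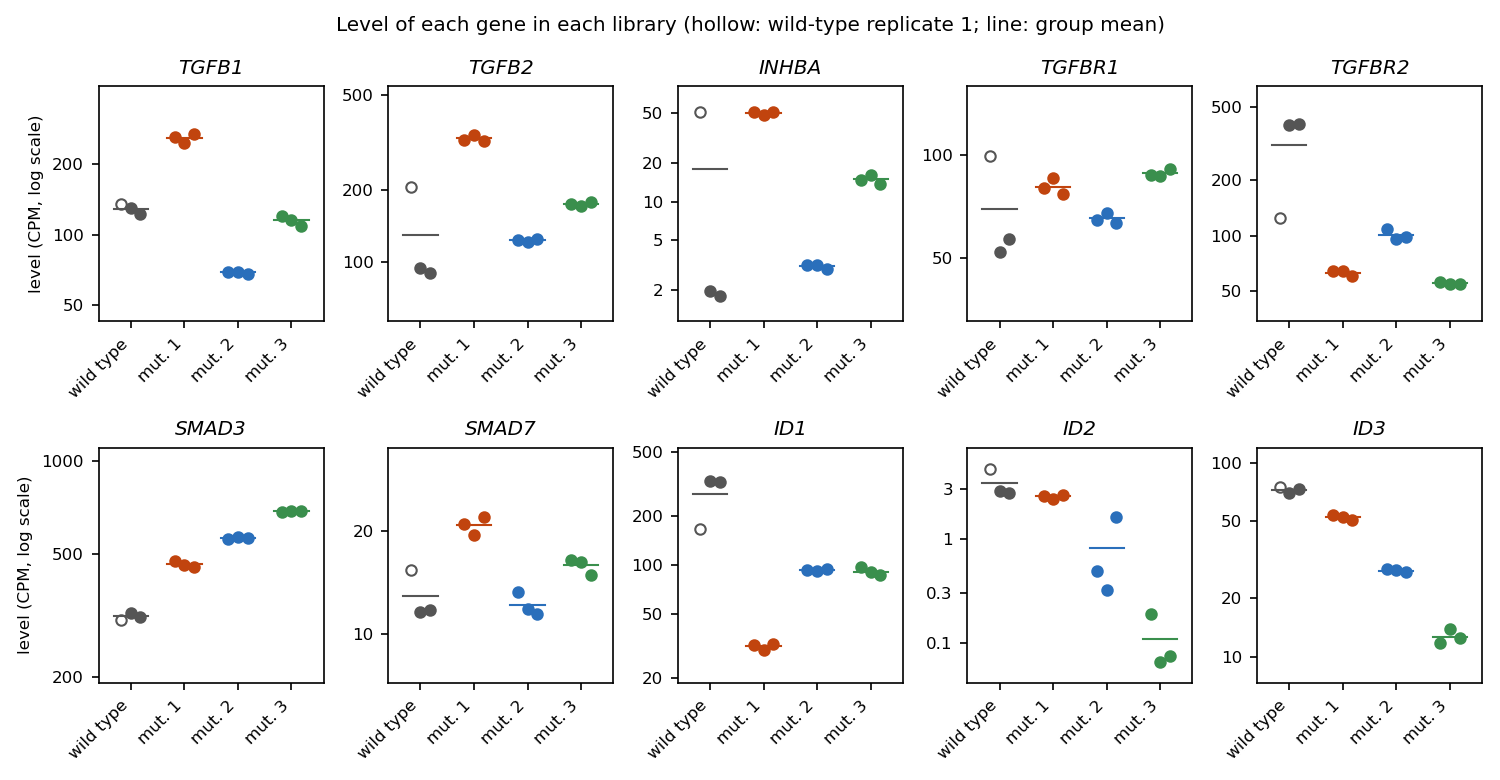
Each panel shows 1 gene, with its level in CPM on a log axis for each of the 12 libraries grouped by plasmid; the hollow point is wild-type replicate 1 and the line is the group mean. Libraries of a mutant group lie close together, except for ID2, while wild-type replicate 1 lies apart from the other two wild-type libraries for TGFB2, INHBA, TGFBR1, TGFBR2, ID1 and ID2.

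By group means the ligand genes were all highest with mutation 1. TGFB1 (chromosome 19, 41301587 to 41353911, hg38, minus strand) encodes the most widely expressed TGF-beta. Its levels were 135, 130 and 123 CPM with wild-type Dicer, 260, 247 and 270 with mutation 1, 69.0, 69.5 and 68.0 with mutation 2, and 120, 116 and 109 with mutation 3. No library of any group overlapped one of another, and the order ran from mutation 1 through wild type and mutation 3 to mutation 2. TGFB1 rose with mutation 1 by a log2 fold change of 1.00 (SE 0.06, adjusted p = 1.21e-07) and fell with mutation 2 (-0.91, SE 0.06, adjusted p = 3.85e-06). The difference for mutation 3, -0.17 (adjusted p = 0.0297), was small and did not pass under several of the other settings tried. Without wild-type replicate 1 the 3 values were 1.04, -0.87 and -0.13. An exon of TGFB1 shares 215 bases with HNRNPUL1 on the other strand, and the counting did not use strand, so reads from those bases cannot be told apart.

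TGFB2 (chromosome 1, 218346235 to 218444619, plus strand) encodes a second TGF-beta, which needs a co-receptor to bind the type II receptor well. Its levels were 207, 94.3 and 90.1 CPM with wild type, 325, 342 and 322 with mutation 1, 124, 121 and 125 with mutation 2, and 175, 172 and 178 with mutation 3. The mutant groups did not overlap one another, whereas the wild-type group spanned both mutation 2 and mutation 3. TGFB2 rose 2.53-fold with mutation 1 (log2 fold change 1.34, SE 0.25, adjusted p = 0.000753). For mutation 2 and mutation 3 the differences from wild type, -0.08 (95% interval -0.63 to 0.47) and 0.43 (-0.13 to 0.98), did not pass. Wild-type replicate 1 decided these: without it all 3 mutants lay above wild type, by 1.84, 0.42 and 0.93 on the log2 scale, and all 3 passed.

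INHBA (chromosome 7, 41667168 to 41705834, minus strand) encodes the beta-A subunit of activin A. It stood at 50.6, 1.96 and 1.81 CPM in the wild-type libraries, so replicate 1 carried 26.9 times the mean of the other two. The mutant groups were tight and far apart, with 50.9, 48.1 and 50.5 CPM for mutation 1, 3.17, 3.18 and 2.93 for mutation 2, and 14.7, 16.2 and 13.9 for mutation 3. With all libraries no comparison with wild type passed, and the log2 fold changes were 1.47 (95% interval -0.53 to 3.47), -2.54 (-4.83 to -0.26) and -0.27 (-2.29 to 1.75). Without wild-type replicate 1 they were 4.72, 0.71 and 2.99, and all passed, so that the values for mutations 2 and 3 changed sign. Between mutants, INHBA was 16.1-fold higher with mutation 1 than with mutation 2 (log2 fold change 4.01, SE 1.05, adjusted p = 0.0062). The differences of mutation 3 from mutation 1 and from mutation 2 did not pass (adjusted p = 0.152 and 0.0882), although the libraries did not overlap, and both passed without wild-type replicate 1, which enters the shared estimate of the spread.

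The receptors behaved unlike each other. TGFBR2 (chromosome 3, 30606502 to 30694142, plus strand) encodes the type II receptor that binds the ligand first. It measured 125, 398 and 405 CPM with wild type, 64.2, 64.6 and 60.6 with mutation 1, 109, 96.3 and 99.0 with mutation 2, and 56.1, 54.8 and 54.9 with mutation 3. Every mutant library lay below every wild-type library, although wild-type replicate 1 came close to mutation 2. In bulk RNA a lower level in each cell and fewer cells with the transcript cannot be told apart, here or for the other genes. TGFBR2 fell 4.90-fold with mutation 1 (log2 fold change -2.29, SE 0.34, adjusted p = 0.000127), 3.05-fold with mutation 2 (-1.61, SE 0.33, adjusted p = 0.00342; lost when only these groups were fitted) and 5.60-fold with mutation 3 (-2.49, SE 0.34, adjusted p = 0.00011). Leaving out wild-type replicate 1 gave -2.66, -1.98 and -2.85. Among the mutants it was lower with mutation 3 than with mutation 2 (1.83-fold, adjusted p = 0.0438), a call lost under most single-library omissions. The difference between mutations 1 and 3 did not pass (log2 0.19, 95% interval -0.53 to 0.92).

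TGFBR1 (chromosome 9, 99104038 to 99154192, plus strand) encodes the type I receptor, the kinase that phosphorylates SMAD2 and SMAD3. Its levels were 99.7, 52.1 and 56.9 CPM with wild type, 80.1, 85.8 and 76.9 with mutation 1, 64.8, 67.7 and 63.2 with mutation 2, and 87.5, 87.0 and 91.1 with mutation 3. It was the single member that passed no comparison, the joint test over the 4 groups included (adjusted p = 0.163, where 83.0% of all genes passed), and the highest and the lowest library were both wild type. The log2 differences from wild type were 0.22 (95% interval -0.21 to 0.65), -0.09 (-0.52 to 0.33) and 0.35 (-0.08 to 0.77). Without wild-type replicate 1 they were 0.58, 0.27 and 0.71 and all 3 passed, with mutation 2 changing sign. The 3 comparisons between mutants then passed as well.

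The balance of the receptors can be read within a library as RPKM, the CPM per kilobase of exon, which makes genes of different length comparable. The ratio of TGFBR2 to TGFBR1 on that scale was 1.83 in wild-type replicate 1 and reached 11.1 in the wild-type group, against 1.10 to 1.16 with mutation 1, 2.07 to 2.44 with mutation 2 and 0.877 to 0.932 with mutation 3. Only the mutation 3 libraries therefore held less TGFBR2 than TGFBR1 per length. The ratio of TGFB1 to TGFB2 moved less, from 1.04 to 2.19 with wild type, 1.15 to 1.33 with mutation 1, 0.863 to 0.914 with mutation 2 and 0.974 to 1.09 with mutation 3. No test was run on these ratios.

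SMAD3 (chromosome 15, 67063763 to 67195195, plus strand), the receptor-activated SMAD that carries the TGF-beta signal, was higher with each mutant. Its levels were 306, 321 and 313 CPM with wild type, 473, 461 and 454 with mutation 1, 559, 565 and 561 with mutation 2, and 683, 689 and 689 with mutation 3. The groups did not overlap, and each step from wild type through mutation 1 and mutation 2 to mutation 3 passed. SMAD3 rose 1.48-fold with mutation 1 (log2 fold change 0.56, SE 0.05, adjusted p = 1.21e-06), 1.79-fold with mutation 2 (0.84, adjusted p = 1.36e-06) and 2.19-fold with mutation 3 (1.13, adjusted p = 2.37e-08). Wild-type replicate 1 lay within 1.04-fold of the mean of the other two, and without it the values were 0.55, 0.83 and 1.12.

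SMAD7 (chromosome 18, 48919853 to 48952052, minus strand), the inhibitory SMAD, is a feedback target of the pathway. It measured 15.4, 11.6 and 11.7 CPM with wild type, 21.0, 19.5 and 22.0 with mutation 1, 13.2, 11.8 and 11.5 with mutation 2, and 16.5, 16.3 and 14.9 with mutation 3. Only the mutation 1 libraries lay clear of all others. SMAD7 rose 1.62-fold with mutation 1 (log2 fold change 0.70, SE 0.12, adjusted p = 0.000365), or by 0.84 without wild-type replicate 1. With mutation 3 it was at 0.30 (adjusted p = 0.0479), a call lost in 14 of 16 other settings, and with mutation 2 at -0.08 (95% interval -0.35 to 0.18), which became 0.064 without wild-type replicate 1.

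ID1 and ID3 fell with all 3 mutants but in different orders, and ID2, in the order of ID3, passed with mutations 2 and 3, which is why the 250 bases before the RefSeq start of each are shown. The gene spans given in this report are GENCODE v29's, and the windows of ID2 and ID3 lie inside those spans. The sequences are RefSeq's (GRCh38.p14), written 5′ to 3′ on the gene's strand, at chr20:31605039-31605288 (plus), chr2:8681806-8682055 (plus) and chr1:23559502-23559751 (minus). Capitals mark matches on either strand to TATAAA, the core of the TATA box, in ID1 and to CAGAC, a SMAD half-site, in ID3.
ID1: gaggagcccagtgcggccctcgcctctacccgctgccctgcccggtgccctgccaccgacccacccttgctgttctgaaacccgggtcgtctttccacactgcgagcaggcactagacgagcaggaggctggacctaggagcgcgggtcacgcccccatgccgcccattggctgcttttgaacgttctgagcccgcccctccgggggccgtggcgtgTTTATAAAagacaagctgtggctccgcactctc
ID2: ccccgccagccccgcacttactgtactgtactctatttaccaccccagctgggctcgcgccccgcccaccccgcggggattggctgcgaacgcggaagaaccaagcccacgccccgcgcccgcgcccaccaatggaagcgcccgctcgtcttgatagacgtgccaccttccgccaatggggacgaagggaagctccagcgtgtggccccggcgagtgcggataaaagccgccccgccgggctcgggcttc
ID3: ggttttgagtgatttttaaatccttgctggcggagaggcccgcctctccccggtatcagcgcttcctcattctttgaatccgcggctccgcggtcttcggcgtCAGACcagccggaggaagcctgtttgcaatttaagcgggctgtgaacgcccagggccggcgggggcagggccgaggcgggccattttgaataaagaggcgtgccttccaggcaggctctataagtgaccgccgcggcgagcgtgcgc
The ID1 window holds 2 overlapping matches to TATAAA, on opposite strands of the same stretch TTTATAAA. The windows of ID2 and ID3 hold no exact match, and near matches were not counted. Of 34943 RefSeq promoter windows of that length, 10.8% have an exact match. CAGAC occurs once in the ID3 window and not in those of ID1 and ID2, against 38.0% of all windows. The palindrome GTCTAGAC, found in 0.183% of windows, and GGCGCC, a GC-rich SMAD element found in 16.4%, occur in none of the 3. Over the 24 windows of the 10 genes, TATAAA occurs in 4, CAGAC in 10 and GGCGCC in 2. These matches describe letters in these windows and are not evidence of binding.

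ID1 (chromosome 20, 31605283 to 31606515, plus strand), the most abundant of the family in the wild-type, mutation 2 and mutation 3 libraries, was lowest with mutation 1. Its levels were 166, 331 and 325 CPM with wild type, 32.2, 29.9 and 32.5 with mutation 1, 92.4, 92.0 and 93.6 with mutation 2, and 96.5, 89.9 and 86.0 with mutation 3. All 9 mutant libraries lay below the lowest wild-type library, and mutations 2 and 3 overlapped. ID1 fell 8.70-fold with mutation 1 (log2 fold change -3.12, SE 0.22, adjusted p = 4.45e-07), 2.96-fold with mutation 2 (-1.57, SE 0.20, adjusted p = 0.00025) and 3.02-fold with mutation 3 (-1.59, SE 0.21, adjusted p = 6.94e-05). The values were -3.38, -1.82 and -1.85 without wild-type replicate 1. Between mutations 2 and 3 the difference of 0.03 did not pass (95% interval -0.42 to 0.47), whereas mutation 1 lay 2.94-fold below mutation 2 (adjusted p = 6.57e-05) and 2.88-fold below mutation 3 (adjusted p = 0.000198).

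ID3 (chromosome 1, 23557918 to 23559794, minus strand) was lowest with mutation 3 instead. It stood at 74.95, 69.6 and 72.9 CPM with wild type, 53.8, 52.5 and 50.9 with mutation 1, 28.3, 27.9 and 27.2 with mutation 2, and 11.7, 13.9 and 12.5 with mutation 3. No groups overlapped, every pair of groups passed, and wild-type replicate 1 lay within 1.05-fold of the mean of the other two. ID3 fell 1.38-fold with mutation 1 (log2 fold change -0.47, SE 0.07, adjusted p = 9.62e-05), 2.61-fold with mutation 2 (-1.38, SE 0.07, adjusted p = 8.46e-07) and 5.70-fold with mutation 3 (-2.51, SE 0.07, adjusted p = 6.45e-09). Its log2 fold changes were -0.43, -1.35 and -2.48 without wild-type replicate 1.

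ID2 (chromosome 2, 8678845 to 8684453, plus strand) was the scarcest member. It was counted at 4.73, 2.91 and 2.78 CPM with wild type, 2.60, 2.42 and 2.63 with mutation 1, 0.493, 0.324 and 1.64 with mutation 2, and 0.188, 0.0653 and 0.0741 with mutation 3. The order was the same as for ID3, with mutation 3 resting on 5 read pairs in all against 167 in the wild-type group, 106 with mutation 1 and 41 with mutation 2. The ratio of wild type to mutation 3 was 30.8, with an exact 95% interval of 12.9 to 96.0 for counting error only, and the fitted log2 fold change was -4.86 (adjusted p = 7.69e-05). With mutation 2 ID2 fell (log2 fold change -2.03, SE 0.46, adjusted p = 0.00592), a call lost when only these groups were fitted, and with mutation 1 the difference of -0.44 (95% interval -1.36 to 0.48) did not pass. Leaving out wild-type replicate 1 gave log2 fold changes of -0.16, -1.71 and -4.57 for mutations 1, 2 and 3.

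**Figure D2:**
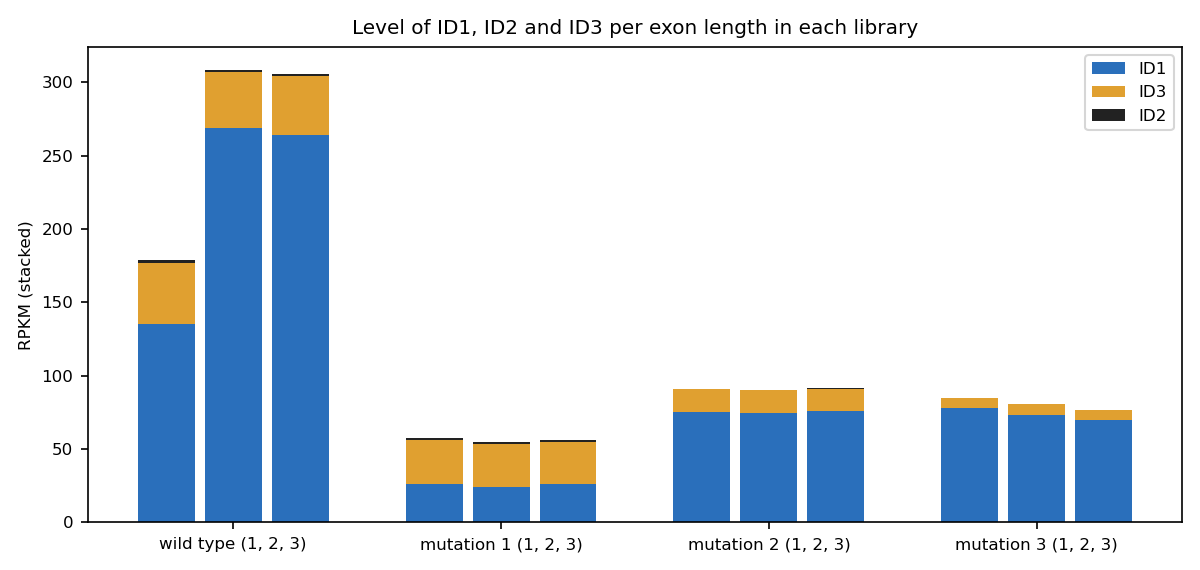
Stacked bars give the RPKM of ID1, ID3 and ID2 in each of the 12 libraries, replicates 1 to 3 from left to right within a group. ID1 (blue) makes up 44.4 to 47.1% of the bar with mutation 1 and 90.4 to 92.2% with mutation 3.

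On the per-length scale the makeup of the ID pool also changed. ID1 averaged 222 ± 75.8 RPKM (SD, n = 3) with wild type, ID3 40.3 and ID2 1.57. The summed RPKM of the 3 genes was 179 to 309 in the wild-type libraries, 54.5 to 57.3 with mutation 1, 90.3 to 91.8 with mutation 2 and 76.8 to 84.9 with mutation 3. ID1 supplied 75.5 to 87.0% of that sum with wild type, 44.4 to 47.1% with mutation 1, 82.4 to 82.7% with mutation 2 and 90.4 to 92.2% with mutation 3. Mutation 1 thus left ID1 and ID3 at like levels per length, and mutation 3 left mostly ID1. No test was run on these shares.

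ID4, the remaining member of the family, was not tested and reached at most 0.335 CPM.

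The mutants were also compared with one another. Between mutation 1 and mutation 2, 8 passed (65.4% of all genes did), 6 higher with mutation 1 (31.8%) and 2, SMAD3 and ID1, lower (33.6%). Between mutation 1 and mutation 3, 7 passed (42.8% of all genes), 5 higher with mutation 1 (20.2%) and 2 lower (22.5%), which were again SMAD3 and ID1. Between mutation 2 and mutation 3, 6 passed (52.9% of all genes), with TGFBR2, ID2 and ID3 higher (27.2%) and TGFB1, SMAD3 and SMAD7 lower (25.7%) with mutation 2. The libraries did not overlap for 10, 10 and 9 of the genes, where 81.6%, 69.8% and 75.9% of all genes did not, and the exception in the last was ID1. Without wild-type replicate 1, which enters the shared estimate of the spread, 10, 10 and 9 passed, where 80.2%, 66.6% and 72.9% of the genes then tested did. So many genes differed between mutants that these counts are no result about the 10. The plot of log2 fold changes sets the comparisons with wild type beside the values without wild-type replicate 1.

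**Figure D3:**
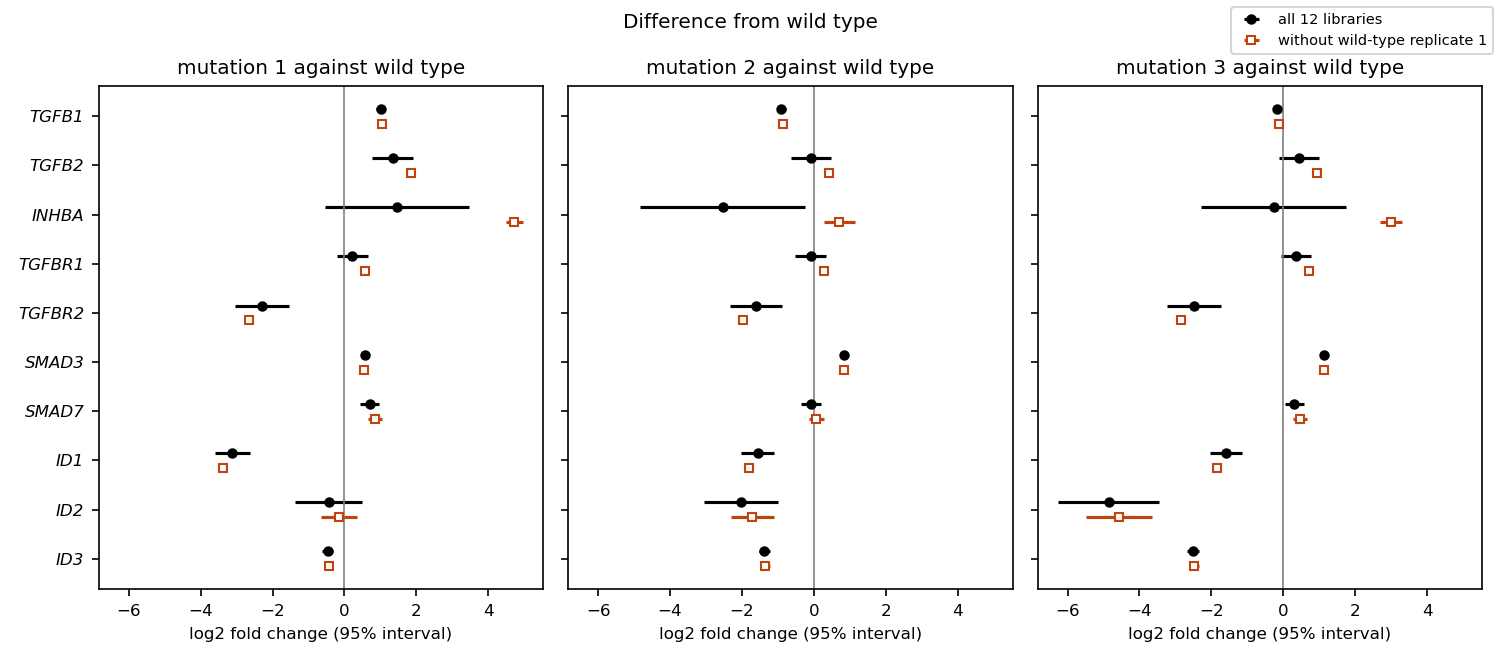
Points give the log2 fold change of each gene from wild type and lines its 95% interval, in 1 panel per mutation, with all 12 libraries (filled) and without wild-type replicate 1 (open squares). INHBA, TGFB2 and TGFBR1 move to the right without that library, and TGFB1, SMAD3 and ID3 hardly move.

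The members were set within 94 further genes of the pathway in 7 lists, 75 of which could be tested. Against wild type, 29 rose and 26 fell with mutation 1 (32.5% and 36.5% of all genes), 10 rose and 22 fell with mutation 2 (16.9% and 20.1%), and 21 rose and 28 fell with mutation 3 (28.1% and 31.2%). Without wild-type replicate 1, 77 could be tested, and 36 rose and 31 fell with mutation 1 (40.2% and 42.5% of all genes then tested), 29 and 37 with mutation 2 (33.0% and 34.9%), and 35 and 36 with mutation 3 (38.2% and 38.8%). The medians of the tested genes, with all libraries, were 0.18, -0.19 and -0.09. Of 7 tested secreted and membrane antagonists, 6 rose and 1 fell with mutation 1 (median log2 fold change 1.00), 2 rose and 2 fell with mutation 2 (median -0.27), and 1 rose and 2 fell with mutation 3 (median 0.14); without wild-type replicate 1 the last 2 became 4 and 2, and 5 and 2, and the medians became 1.56, 0.45 and 0.43. Of 17 TGF-beta and activin response genes, 5 rose and 6 fell with mutation 1, 2 rose and 8 fell with mutation 2, and 3 rose and 8 fell with mutation 3 (medians -0.45, -0.52 and -0.41). Without wild-type replicate 1 these became 6 and 8, 5 and 10, and 6 and 11 (medians -0.37, -0.42 and -0.65). Ligands gave 3 up and 4 down, 0 up and 3 down, and 2 up and 4 down of 7 for mutations 1, 2 and 3. Receptors, with 10 tested, gave 3 up and 4 down, 2 up and 2 down, and 3 up and 2 down. Among 16 SMADs and nuclear regulators, 5 rose and 6 fell, 3 rose and 3 fell, and 7 rose and 5 fell. Of 11 latency and activation genes, 3 rose and 3 fell, 1 rose and 1 fell, and 3 rose and 4 fell. The 7 BMP response genes and ID partners gave 4 up and 2 down, 0 up and 3 down, and 2 up and 3 down. Leaving out wild-type replicate 1 made these 5 and 2, 1 and 6, and 3 and 4, and the counts of the remaining lists moved as well.

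**Figure D4:**
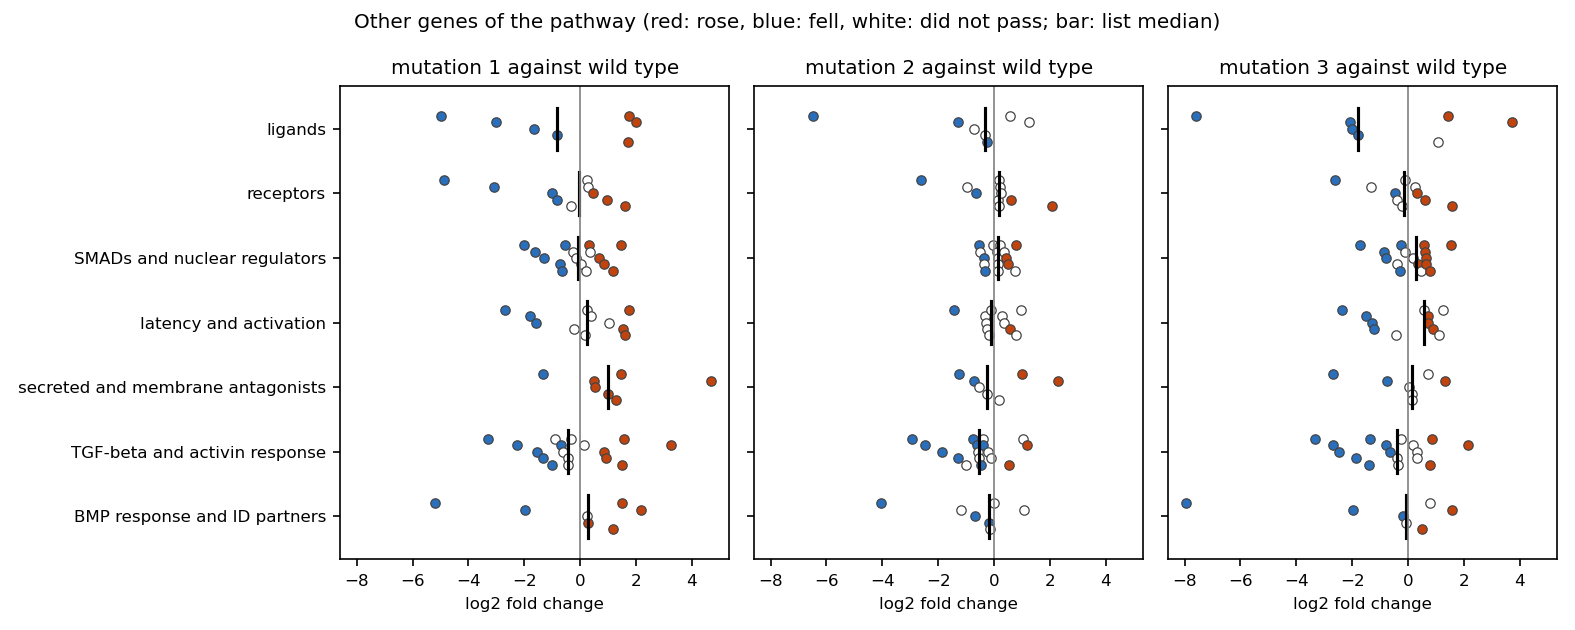
Each point is 1 tested gene of the 7 lists, placed by its log2 fold change from wild type in 1 panel per mutation; red points rose, blue points fell, white points did not pass, and the bar is the list's median. The antagonist list with mutation 1 has 6 red points and 1 blue one, with its median at 1.00. Of all tested genes, 32.5% rose and 36.5% fell with mutation 1. The lists were chosen with earlier results known, so that count is no result about antagonists.

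Several of these genes bear on the BMP arm, to which the ID genes respond. BMP4, NOG, CHRD, ATOH8, BAMBI and RUNX2, described below, were picked for the size of their change. The others are a selection given for mutation 1 only, and the arm did not move in 1 direction. With mutation 1 the response gene MSX2 (log2 fold change 1.50), the ligand gene BMP8B (1.71), the receptor gene BMPR2 (0.98) and SMAD5 (0.86) rose. So did the ligand gene GDF5 (1.77), HES1 (1.19) and the receptor gene ACVR1 (0.48). SMAD1 (-2.02), SMAD9 (-0.74) and the receptor gene BMPR1A (-0.99) fell with mutation 1. The receptor gene BMPR1B (-4.88), the response gene HEY1 (-1.98) and SMAD6 (-1.62) fell as well. Any part of these genes in the levels of the ID genes was not tested. BMP4, a BMP ligand, fell from 321 ± 18.7 CPM with wild type to 40.3 with mutation 1 (7.97-fold, adjusted p = 2.58e-10), 267 with mutation 2 (1.20-fold, adjusted p = 0.00404) and 80.9 with mutation 3 (3.97-fold, adjusted p = 7.14e-09). NOG, which binds BMPs and blocks them, rose from 48.3 ± 27.7 CPM to 96.5, 95.4 and 122 with mutations 1, 2 and 3 (adjusted p = 0.00906, 0.0201 and 0.00213). CHRD, another BMP antagonist, rose to 5.10 CPM with mutation 1 from 0.197 with wild type, a ratio of 27.2 (exact 95% interval 14.1 to 60.4, counting error only). It also rose with mutation 2, to 0.954 CPM (adjusted p = 0.0359), and was at 0.321 with mutation 3 (adjusted p = 0.512, or 0.00503 without wild-type replicate 1). Its wild-type libraries held 0.525, 0 and 0.0647 CPM, so the level with wild type rests mostly on replicate 1, and the fitted log2 fold change with mutation 1 went from 4.71 to 7.06 without that library. ATOH8, a helix-loop-helix factor known as a BMP target, fell from 29.5 ± 14.8 CPM to 0.802, 1.77 and 0.107. BAMBI, a pseudoreceptor, fell from 14.8 CPM to 5.92, 9.03 and 2.26. RUNX2, a transcription factor that works with SMADs, rose from 37.4 CPM to 168 with mutation 1 and 110 with mutation 3 and fell slightly to 32.7 with mutation 2.

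On the TGF-beta and activin side, INHBB, which encodes the beta-B activin subunit, fell from 490 read pairs with wild type to 13, 5 and 2 with mutations 1, 2 and 3. Those counts correspond to ratios of 32.3, 95.5 and 226, the last with an exact 95% interval of 62.2 to 1870. IL11, a cytokine induced by TGF-beta, fell from 55.4 CPM to 34.3, 7.24 and 9.95. BHLHE40, a transcriptional repressor, rose from 80.2 ± 56.6 CPM to 767 with mutation 1 and 354 with mutation 3 and was at 54.4 with mutation 2 (adjusted p = 0.235). GDF15, a distant member of the ligand family, rose from 22.3 ± 15.3 CPM to 88.6 with mutation 1 and 293 with mutation 3 and was at 13.4 with mutation 2 (adjusted p = 0.124). The activin type II receptor gene ACVR2B rose from 11.4 CPM to 34.5, 17.5 and 33.6. ANGPTL4, a secreted TGF-beta target, rose from 12.5 CPM to 28.7 with mutation 2 and fell to 2.62 with mutation 1 and 7.24 with mutation 3. ENG, a TGF-beta co-receptor, fell from 6.74 ± 5.33 CPM to 0.788 and 1.10 with mutations 1 and 2 and was at 2.69 with mutation 3 (adjusted p = 0.118), but its wild-type libraries stood at 0.591, 10.1 and 9.58 CPM and overlapped the mutants. ZFYVE9, which presents SMADs to the receptor, rose from 22.2 CPM to 38.2 with mutation 2 and 33.4 with mutation 3 and was at 25.9 with mutation 1 (adjusted p = 0.303). SMAD4, the partner of SMAD3, measured 28.6 ± 9.11 CPM with wild type and 36.4, 36.6 and 45.1 with mutations 1, 2 and 3, and passed with mutation 3 (log2 fold change 0.66, adjusted p = 0.00626). Leaving out wild-type replicate 1 brought the differences given as not passing for these genes past the threshold, at 0.20 for BHLHE40 (which changed sign), -1.84 for ENG, 0.56 for ZFYVE9, and 0.65 and 0.66 for SMAD4 with mutations 1 and 2, with the exception of GDF15 with mutation 2. The rises became larger without it for BHLHE40 (from 3.26 to 4.02 with mutation 1 and from 2.14 to 2.90 with mutation 3) and for GDF15 (from 1.997 to 2.72 and from 3.72 to 4.45). For NOG they went from 1.00, 0.99 and 1.34 to 1.59, 1.57 and 1.93.

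Likeness of pattern was described by Pearson's r of log2 CPM over the 12 libraries among 10428 genes, with no test, since the libraries fall into a few tight clusters and share depth and plasmid. The gene most like each member was ITGB1 for TGFB1 (r = 0.995), ASS1 for TGFB2 (0.995), SERINC2 for INHBA (0.993), TPST1 for TGFBR1 (0.971), CSRP1 for TGFBR2 (0.994), SMURF1 for SMAD3 (0.986), SIAE for SMAD7 (0.985), SHISA2 for ID1 (0.992), RIN3 for ID2 (0.969) and CDH11 for ID3 (0.994). With r over 0.95, TGFB2 had 207 such genes and TGFBR2 157, whereas TGFBR1 had 8 and ID2 4.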

How the data were processed

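RNA was measured in 12 libraries, 3 for each of 4 Dicer plasmids. The deposited values are unnormalized counts of fragments (read pairs) for each gene, made by the authors, per the file headers, with featureCounts 2.0.6 on hg38 Ensembl genes, over exons, without strand and at a mapping quality of at least 10. The tools cutadapt 1.9.1, FastQC 0.11.8, STAR, SAMtools and DESeq2 are named in the submitters' processing notes; versions of the last 3 are not given in the sources used here. GENCODE v29 supplied coordinates for 56591 of the gene IDs. Symbols, found for 56591 (88.1%), came from a reference list of gene names, with GENCODE v29 for any that it lacked.

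All 12 libraries entered 1 edgeR 4.0.16 quasi-likelihood fit (R 4.3.3) with TMM scaling, robust estimation, 8 residual degrees of freedom and filterByExpr (minimum count 10, total 15), which kept 15094 genes. Genes passed at a Benjamini-Hochberg adjusted p under 0.05. The SE is the log2 fold change over the square root of F. RPKM divides CPM by the length of merged exons. Intervals for ratios of counts are exact (Clopper-Pearson, 95%) and cover counting error only. The fit was also run on simulated counts in which no library stood apart, so that run does not bear on the effect of wild-type replicate 1. DESeq2 1.42.0, other scaling, no filter, fits of only the groups compared and omission of each library were alternatives.

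The members and gene lists were chosen with earlier results of these data known. Pathway genes were named if among the 4 largest called rises or falls of a mutation from wild type with at least 5 CPM in the higher group, and SMAD4 and ID4 in any case. The further genes of the BMP arm given for mutation 1 only were named outside this rule. The gene most like each member had at least 5 CPM on average. Of the markers of other cell types, 1 is not reported here.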

Additional observations from a re-analysis of the deposited data

How the results depend on the processing

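Each of 60 comparisons of a member was recomputed under up to 16 alternatives, which gave 953 values: 875 kept direction and side of the threshold, 48 no longer passed, 25 newly passed and 5 changed sign. Of the 41 that passed, 32 did so under every alternative run. The other 9 were TGFB1 (mutation 3 against wild type), TGFB2 (mutation 1 against 3), TGFBR2 (mutation 2 against wild type and against mutation 3), SMAD7 (mutation 3 against wild type, mutation 1 and mutation 2) and ID2 (mutation 2 against wild type and against mutation 1). The 5 changes of sign all came without wild-type replicate 1, which gave the upper end of each range of log2 fold changes over the single-library omissions. For mutation 2 vs wild type these ranges were -0.29 to 0.42 for TGFB2, -3.08 to 0.71 for INHBA, -0.27 to 0.27 for TGFBR1 and -0.16 to 0.064 for SMAD7. For mutation 3 vs wild type the range for INHBA was -0.81 to 2.99. DESeq2's size factors within edgeR changed none of the 60. DESeq2 gave no adjusted p for INHBA.

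Over all genes, 5588 passed for mutation 2 vs wild type, compared with 2589 when only those groups were fitted and 4208 to 10726 when a library was left out. For mutation 1 vs mutation 3 the numbers were 6454, 10073 and 5146 to 10521. The highest values in both came without wild-type replicate 1, and the cause was not tested. ID2 was not tested between mutations 2 and 3 when only those groups were fitted, because it failed the filter. Depth limits ID2 most, with 5 read pairs in the mutation 3 group. No paired analysis was possible because the mutant libraries carry no replicate numbers in the labels.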
